A study of Rattus norvegicus with 18 samples.

Results

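The question addressed here is whether preincubation with a form of vitamin D changes how the transcriptome of INS1E cells, an insulin-secreting rat insulinoma line, responds to a glucose stimulus. All 18 of the 18 arrays of the series enter, as a layout of 3 pretreatments by 2 glucose conditions with 3 arrays in each of 6 groups. Cells were cultured at 11 mM glucose and held for 72 h with 10 nM calcitriol (labelled 1,25 VitD), with 10 nM calcidiol (labelled 25-OH VitD) or with neither. Every group then spent 60 min in glucose-free buffer. The groups named calcitriol + glucose, calcidiol + glucose and glucose received 22 mM glucose for 60 min, and the groups named calcitriol, calcidiol and control did not. All groups are therefore of 1 cell line, and the unstimulated state is a glucose-starved one. Whether the 3 arrays of each group stand for separate cultures is not stated in the labels. The p-values below thus cover the spread between these arrays alone, which may be technical.

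The quantity reported throughout is the interaction, a log2 value: the glucose response of cells given a vitamin D form (form + glucose minus form) minus the glucose response of cells given none (glucose minus control). A positive interaction of a gene that rises after glucose is a larger rise with the vitamin D form, and a positive interaction of a gene that falls after glucose is a smaller fall. Both interactions subtract the same glucose and control arrays, so a high or low value there moves both together. A further comparison, calcitriol response minus calcidiol response, uses neither.

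In beta cells, glucose metabolism closes ATP-sensitive potassium channels, and the resulting calcium entry drives insulin release and a fast wave of immediate early genes through calcium- and cAMP-responsive transcription factors. Glucose metabolites also activate the carbohydrate response factor ChREBP, whose best known target in beta cells is Txnip. Calcitriol is the hormone that binds the vitamin D receptor, a nuclear receptor that pairs with a retinoid X receptor on DNA. Calcidiol is its circulating precursor, which lacks the 1α-hydroxyl group of calcitriol and binds the receptor less tightly.

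The cell identity was checked first. Ins1 and Ins2, the rat insulin genes, lay between 12.78 and 12.98 and between 12.96 and 13.08 log2 signal on every array. Sst, Ppy and Ghrl, hormones of other islet cells, and Cela1, an acinar enzyme, had medians between 5.08 and 5.39 and stayed below the signal filter. Gcg, the glucagon gene of alpha cells, was high, with a median of 11.56 over all arrays and values of 10.20 and 10.27 on the arrays numbered 3 of calcidiol + glucose and calcidiol. Whether fewer cells or less RNA per cell carry Gcg on those arrays cannot be told apart in bulk RNA. Of the 21 genes on the list of other cell types, 12 were among the genes with a named probe set, and Gcg alone passed the filter.

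The arrays numbered 3 stood apart from the others in their glucose genes. Txnip had 12.33, 12.22 and 12.28 log2 signal with calcitriol + glucose, against 10.48, 10.46 and 12.11 with calcitriol. It had 12.23, 12.18 and 10.23 with calcidiol + glucose, against 10.53, 10.41 and 10.44 with calcidiol. With glucose alone it had 12.29, 12.22 and 10.33, against 10.48, 10.39 and 9.88 in control cells. Thus the array labelled calcitriol number 3 had the Txnip level of stimulated cells, and the arrays labelled calcidiol + glucose number 3 and glucose number 3 had that of unstimulated cells. This pattern was not the same for every glucose gene. Nr4a1 had 9.84 on glucose number 3 and 8.95 on calcidiol number 3, at or near its stimulated level. Zfp36 had 7.45 and 6.98 on those arrays, nearer its unstimulated level. What set these arrays apart was not tested. Interactions of named genes are therefore given on all 18 arrays, the main analysis, and in most cases also on the 12 arrays numbered 1 and 2, an alternative chosen because earlier results of these data had shown this pattern. Since that choice leaves out the arrays that stood apart in glucose genes, the narrower 12-array intervals of such genes follow in part from it and are given as a description.

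**Figure D1:**
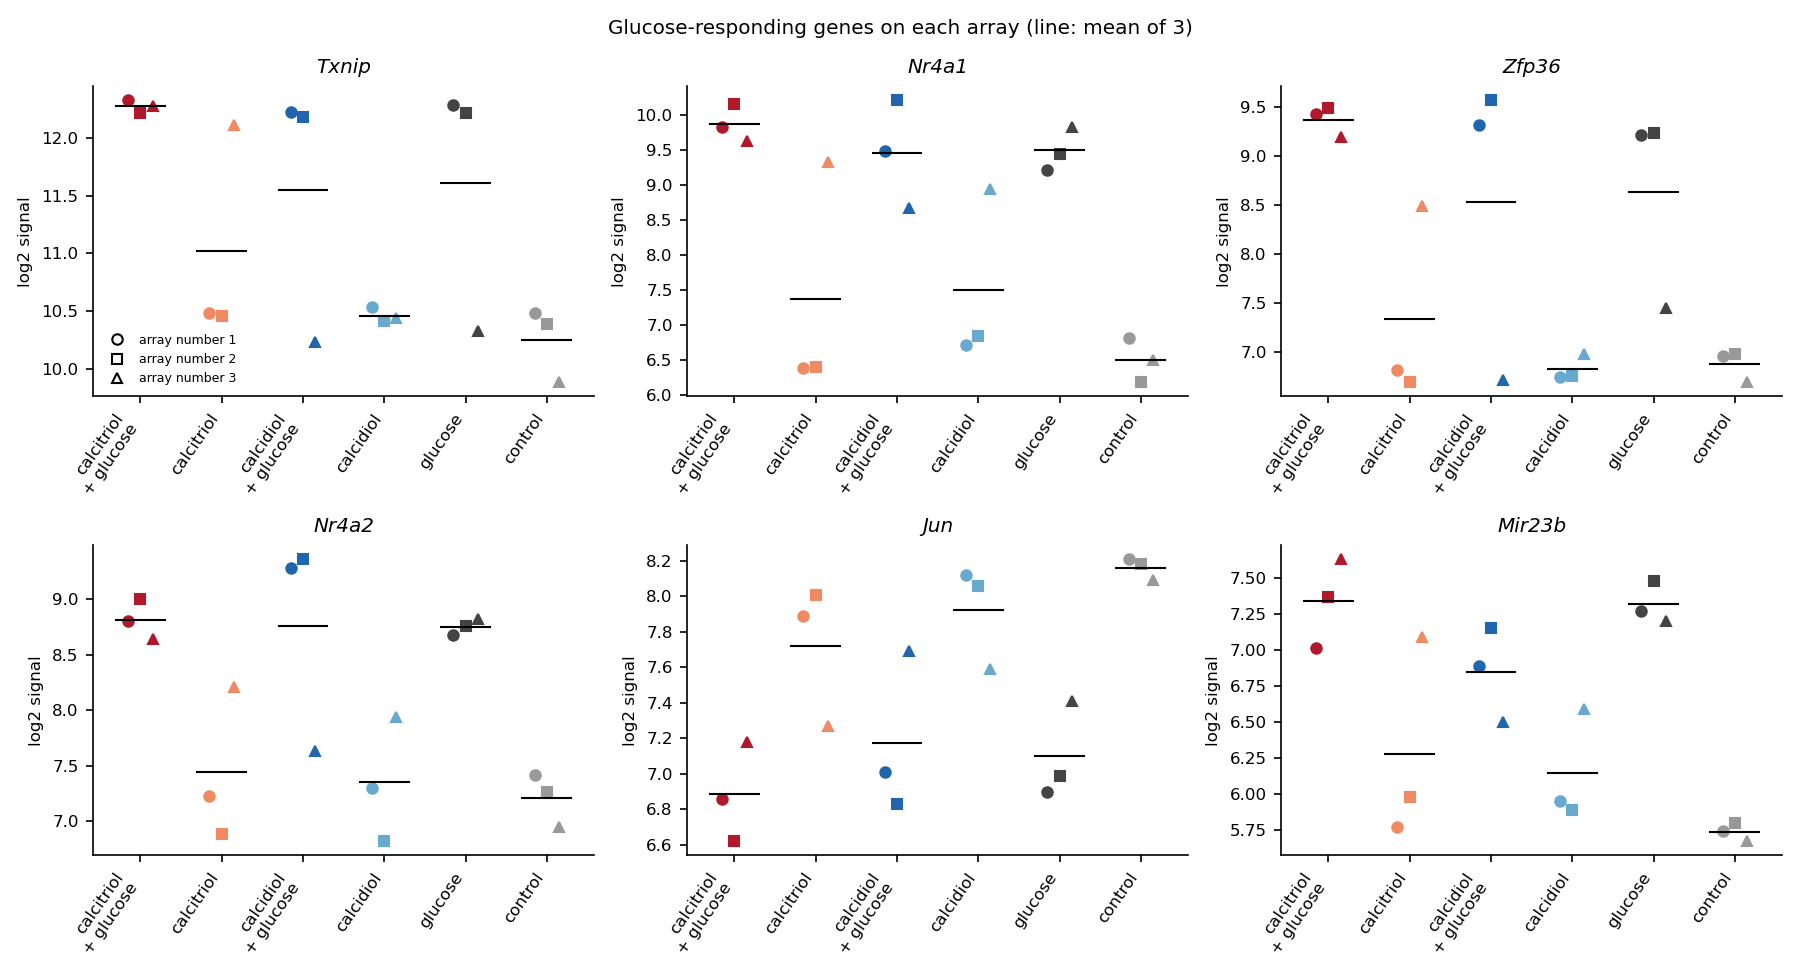
Log2 signal of 6 glucose-responding genes on each of the 18 arrays, by group, with array numbers as symbols and the group mean of 3 as a line. Circles and squares of the stimulated and unstimulated groups separate in every pretreatment, whereas triangles (number 3) of Txnip sit at 12.11 with calcitriol, 10.23 with calcidiol + glucose and 10.33 with glucose.

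No gene passed the test for an interaction. Of 9852 genes tested with limma's moderated test and Benjamini-Hochberg adjustment, 0 (percent called 0) had an adjusted p below 0.05 for calcitriol, for calcidiol, for the difference between both forms or in the F-test of any interaction. The smallest adjusted p was 1.000 in each. At an unadjusted p below 0.05, 66 genes (0.670%) stood out for calcitriol, 29 with a positive and 37 with a negative interaction. For calcidiol there were 32 such genes (0.325%), 20 positive and 12 negative. For calcitriol minus calcidiol there were 97 (0.985%), and for the F-test 34 (0.345%). All 4 shares lie under the 5% that a test with no difference anywhere would give. That 5% holds only where the model describes the spread between arrays well, which was not tested. All 18 arrays correlated best with an array of their own number, and the main fit has no term for that number. Fits with such a term (a replicate block) gave higher counts at an unadjusted p below 0.05, listed in the last section. The low shares are thus no evidence that interactions are absent. The typical gene's interaction had a standard error of 0.13 on the log2 scale.

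The count of 0 held on the 12 arrays numbered 1 and 2. There, limma gave an unadjusted p below 0.05 for 144 genes (1.46%) for calcitriol, 138 (1.40%) for calcidiol, 247 (2.51%) for calcitriol minus calcidiol and 123 (1.25%) in the F-test. The smallest adjusted p over the first pair of comparisons was 1.000, and it was 0.998 for the comparison of the forms. The effect of glucose itself, averaged over the 3 pretreatments, was called by the same fits for 332 genes (3.37%) on 18 arrays, 138 higher and 194 lower. On 12 arrays it was called for 979 genes (9.94%), 370 higher and 609 lower.

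**Figure D2:**
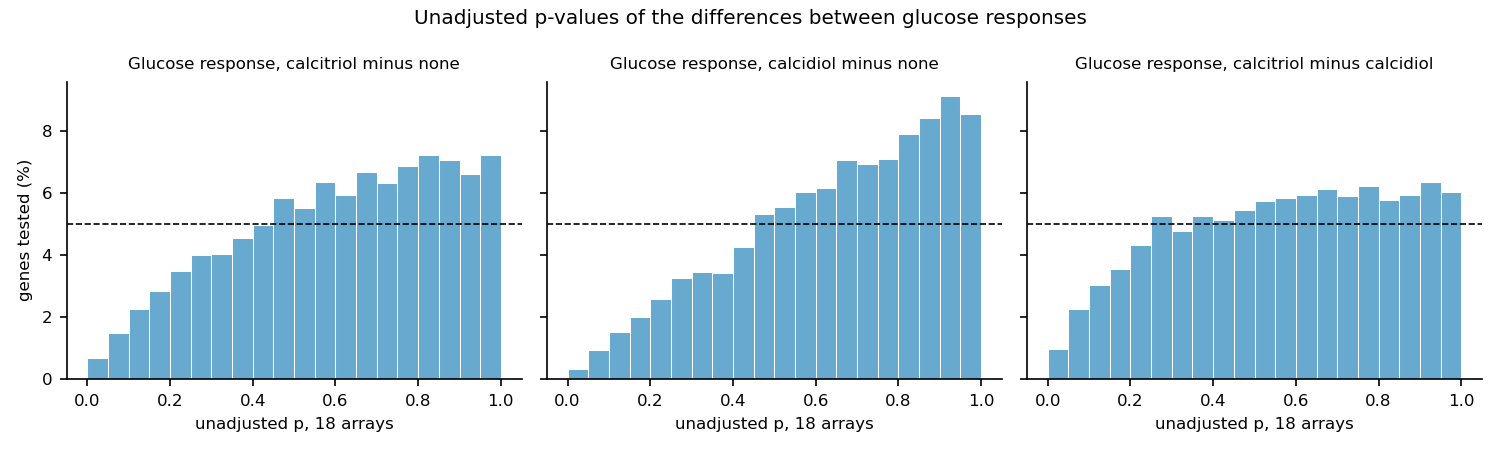
Distribution of unadjusted p-values (x axis) over the 9852 genes tested, as the percent of genes in bins of 0.05 (y axis), for the 3 comparisons of glucose responses on 18 arrays. The dashed line marks 5%. The lowest bin holds 0.670% of genes for calcitriol, 0.325% for calcidiol and 0.985% for calcitriol minus calcidiol, and all 3 distributions climb toward 1.

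The interaction was then read on the genes that glucose moved most surely. The 100 genes with the smallest p for the averaged glucose effect, 52 higher and 48 lower after glucose, had a median absolute glucose effect of 0.38 log2. Turned so that a positive value is a larger response, their interaction had a median of 0.01 for calcitriol, with 52 genes above and 48 below 0. Its middle 50% of values ran between -0.07 and 0.09. For calcidiol the median was -0.09, with 19 genes above and 81 below 0, and the middle values ran between -0.14 and -0.03. None of the 100 was called. Over all genes tested the medians were -0.01 and 0.

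Both medians moved with the arrays numbered 3. On the 12 arrays numbered 1 and 2, the same 100 genes had medians of 0.08 for calcitriol and -0.01 for calcidiol, with 73 and 46 genes above 0. Leaving out the single array labelled calcidiol + glucose number 3 gave 0.03 for calcidiol. When the 100 genes were instead chosen on those 12 arrays (87 higher, 13 lower, median absolute effect 0.82), the medians were 0.13 and 0.03. The 2 lists shared 45 genes.

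A mean over the 100 genes, centred and turned in the same way, shows this by array. It was 0.40, 0.38 and 0.27 with calcitriol + glucose, against -0.36, -0.31 and 0.08 with calcitriol. It was 0.33, 0.35 and -0.12 with calcidiol + glucose, against -0.34, -0.29 and -0.11 with calcidiol. With glucose alone it was 0.32, 0.29 and 0.07, against -0.34, -0.34 and -0.29 in control cells. Stimulated and unstimulated arrays did not overlap with calcitriol, nor without vitamin D. The genes were chosen and turned by their glucose effect on these same arrays, so such a separation is in part built in and is no support. With calcidiol, the stimulated array number 3 lay just under the unstimulated array number 3.

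**Figure D3:**
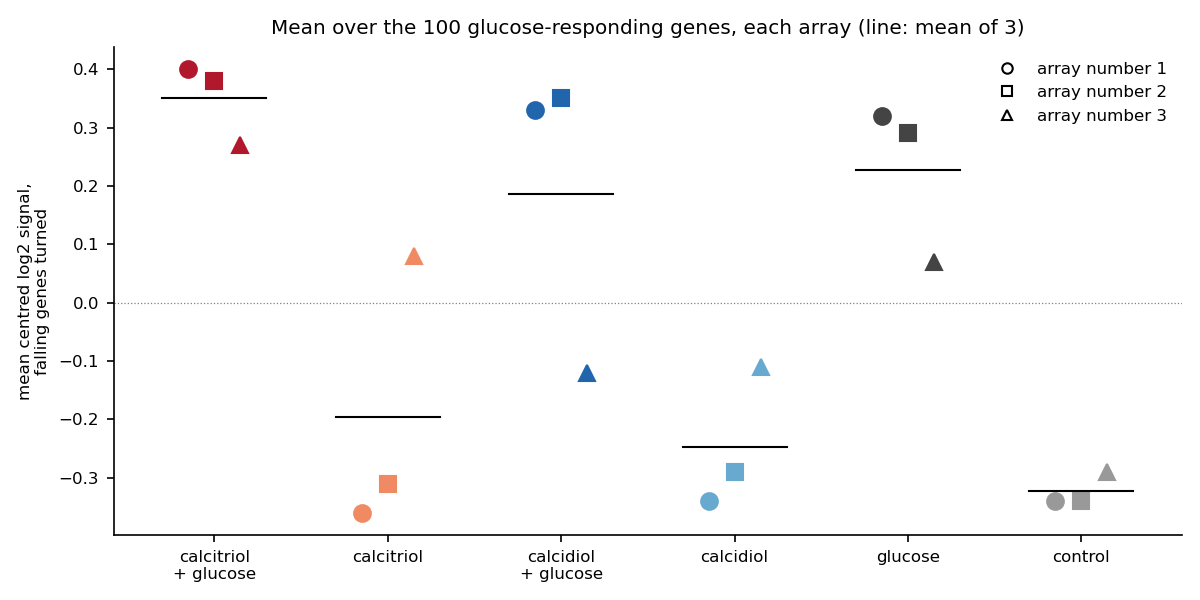
Mean centred log2 signal over the 100 glucose-responding genes (y axis), with falling genes turned, for each array by group; symbols give the array number and lines the mean of 3. Arrays numbered 1 and 2 lie between 0.29 and 0.40 with glucose and between -0.36 and -0.29 without it in every pretreatment, while the arrays numbered 3 lie between -0.29 and 0.27.

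How large an interaction these arrays could miss was read from the 95% intervals. Among the 100 genes the median half-width was 0.40 log2, about the size of their median response. A complete loss of the glucose response lay outside the interval of 58 genes for calcitriol and 21 for calcidiol, and a doubling lay outside it for 47 and 74. On the 12 arrays the half-width was 0.32, loss lay outside for 87 and 76 genes, and a doubling for 67 and 80. The genes were chosen for a glucose effect large against its spread on these same arrays, which favours narrow intervals, so these counts describe the chosen genes and support nothing about the interaction. For a typical gene of the 100, an estimated interaction smaller than these half-widths leaves 0 inside its unadjusted interval. A larger one need not be called after adjustment. On 18 arrays, 66 of all tested genes had a calcitriol interval clear of 0, and 0 were called.

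The promoters of Nr4a1 and Sik1 are printed because they hold the short core, common in promoters, of the element through which calcium and cAMP can act. Each runs along the gene's own strand and comes from RefSeq's rat assembly GRCr8, with the cAMP-response core TGACG, or its complement CGTCA, in capitals. Nr4a1 encodes an orphan nuclear receptor of the immediate early class (chr7:134259888-134260187, plus strand, 4 matches), and Sik1 encodes a salt-inducible kinase that restrains CREB coactivators (chr20:9958597-9958896, minus strand, 2 matches).
Nr4a1: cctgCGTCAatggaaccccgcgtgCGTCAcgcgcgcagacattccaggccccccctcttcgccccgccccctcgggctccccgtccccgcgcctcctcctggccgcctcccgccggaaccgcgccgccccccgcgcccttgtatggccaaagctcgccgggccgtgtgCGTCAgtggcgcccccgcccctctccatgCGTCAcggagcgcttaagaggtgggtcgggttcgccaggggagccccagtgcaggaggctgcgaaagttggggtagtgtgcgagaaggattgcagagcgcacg
Sik1: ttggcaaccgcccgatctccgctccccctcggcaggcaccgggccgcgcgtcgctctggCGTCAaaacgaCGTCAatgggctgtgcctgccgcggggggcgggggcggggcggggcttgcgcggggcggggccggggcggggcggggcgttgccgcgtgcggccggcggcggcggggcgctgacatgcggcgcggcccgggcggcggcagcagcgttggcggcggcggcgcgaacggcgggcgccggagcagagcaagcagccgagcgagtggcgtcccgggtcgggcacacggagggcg
The core, on either strand, was found in 30 of 79 matched promoters of the 100 genes (38.0%), in 34.4% of 7197 promoters of tested genes and in 22.0% of all 27457 promoters. The full palindrome TGACGTCA was in 0 of the 79, against 3.47% of the promoters of tested genes and 1.91% of all. The ChREBP-type E-box CACGTG was in 11 of the 79 (13.9%), against 9.93% of the promoters of tested genes and 6.65% of all. The direct repeat bound by the vitamin D receptor (DR3) was in 0 of the 79, against 0.208% and 0.353%. A match is a stretch of letters and no evidence of binding.

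Among immediate early genes, Nr4a1 had the largest averaged rise after glucose, 2.49 log2 (SE 0.39, limma adjusted p = 0.0129). Its signal was 9.83, 10.17 and 9.63 with calcitriol + glucose, against 6.38, 6.40 and 9.33 with calcitriol. With calcidiol + glucose it was 9.49, 10.22 and 8.67, against 6.72, 6.85 and 8.95 with calcidiol. Glucose alone gave 9.22, 9.45 and 9.84, against 6.82, 6.18 and 6.50 in control cells. Arrays 1 and 2 of every stimulated group were far above arrays 1 and 2 of its unstimulated group, and both unstimulated vitamin D arrays numbered 3 were near the stimulated level. The interaction on 18 arrays was -0.50 for calcitriol (95% interval -2.52 to 1.53) and -1.05 for calcidiol (-3.07 to 0.98). On 12 arrays the values were 0.77 (0.02 to 1.52) and 0.23 (-0.52 to 0.99), the opposite sign, at an adjusted p of 1.00.

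Zfp36, which encodes an mRNA-destabilising protein, is 1 of 2 genes among the 12 largest risers with an established symbol (LOC688553, with an averaged rise of 1.09, is passed over) whose 12-array interval lay above 0 for calcidiol. Its signal was 9.43, 9.49 and 9.19 with calcitriol + glucose, against 6.82, 6.69 and 8.49 with calcitriol. It was 9.32, 9.57 and 6.71 with calcidiol + glucose, against 6.74, 6.76 and 6.98 with calcidiol, and 9.21, 9.23 and 7.45 with glucose, against 6.96, 6.98 and 6.69 in control cells. Arrays 1 and 2 of both vitamin D forms were slightly higher than glucose alone when stimulated and slightly lower than control when not. The 12-array interaction was 0.45 for calcitriol (0.17 to 0.73) and 0.44 for calcidiol (0.16 to 0.72), both at limma adjusted p = 1.00, and they share the glucose and control arrays. On 18 arrays the values were 0.28 (-1.61 to 2.17) and -0.05 (-1.94 to 1.84).

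The other is Nr4a2, a relative of Nr4a1. It had 8.80, 9.0 and 8.64 with calcitriol + glucose, against 7.23, 6.89 and 8.21 with calcitriol. With calcidiol + glucose it had 9.28, 9.36 and 7.63, against 7.30, 6.82 and 7.94 with calcidiol, and with glucose 8.68, 8.76 and 8.82, against 7.42, 7.26 and 6.95 in control cells. Arrays 1 and 2 of calcidiol + glucose were the highest of all 18, and array number 3 of that group was lower than its unstimulated counterpart. Its calcidiol interaction was 0.88 on 12 arrays (0.39 to 1.37, unadjusted p = 0.00228, adjusted p = 1.00 by limma) and -0.14 on 18 (-1.33 to 1.06). Its calcitriol interaction was 0.46 on 12 arrays (-0.03 to 0.95), and calcitriol minus calcidiol was -0.42 (-0.91 to 0.07).

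The remaining rising genes showed intervals on both sides of 0 in most cases. Sik1 had 12-array interactions of 0.12 for calcitriol (-0.45 to 0.69) and 0.21 for calcidiol (-0.36 to 0.78), against 18-array values of -0.33 (-1.41 to 0.75) and -0.42 (-1.50 to 0.67). Its sign thus turned with the set of arrays for both forms. Junb, an AP-1 subunit, had 0.14 (-0.25 to 0.52) and -0.04 (-0.43 to 0.34) on 12 arrays, and 0.05 (-0.93 to 1.02) and -0.26 (-1.23 to 0.72) on 18. Atf3, a stress-induced transcription factor, had 0.44 (-0.09 to 0.97) and 0.03 (-0.50 to 0.56) on 12 arrays, and 0.30 (-0.61 to 1.22) and -0.14 (-1.05 to 0.78) on 18, so that its calcidiol value turned. Only Lcat, the lecithin-cholesterol acyltransferase gene, among the other 9 named risers had a 12-array calcitriol interval clear of 0, at 0.51 (0.08 to 0.95), with 0.28 (-0.16 to 0.72) for calcidiol. On 18 arrays its intervals held 0 for both forms, at 0.60 (-1.11 to 2.30) and 0.25 (-1.46 to 1.96). Those of Gadd45b, G0s2, Spata2L and Bhlhe41 held 0 for both forms on both sets of arrays.

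Txnip, the thioredoxin-interacting protein gene, had narrow intervals on the 12 arrays. There its glucose response was 1.81 with calcitriol, 1.73 with calcidiol and 1.82 without vitamin D. The interaction was -0.01 for calcitriol (-0.26 to 0.23) and -0.09 for calcidiol (-0.33 to 0.16), and calcitriol minus calcidiol was 0.07 (-0.17 to 0.32). The width of these intervals is no support for an unaltered response, because the arrays left out include those whose Txnip levels went against their labels. On 18 arrays they widened to between -1.76 and 1.56 for calcitriol and between -1.93 and 1.38 for calcidiol. Klf10, a transforming growth factor-induced Krüppel-like factor named after its values were seen, had responses of 1.57, 1.57 and 1.67 on the 12 arrays in the same order, and interactions of -0.09 (-0.35 to 0.16) and -0.10 (-0.36 to 0.15). On 18 arrays its interactions were 0.10 (-1.18 to 1.37) and 0.00 (-1.28 to 1.27).

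Of the genes that fell after glucose, Jun, the AP-1 subunit, had the largest averaged fall among the 100: it fell by 0.88 log2 (SE 0.13, limma adjusted p = 0.0109). Its signal was 6.86, 6.62 and 7.18 with calcitriol + glucose, against 7.89, 8.01 and 7.27 with calcitriol. It was 7.01, 6.83 and 7.69 with calcidiol + glucose, against 8.12, 8.06 and 7.59 with calcidiol, and 6.90, 6.99 and 7.41 with glucose, against 8.21, 8.18 and 8.09 in control cells. Only with calcidiol did stimulated and unstimulated arrays overlap, through the arrays numbered 3. The 12-array interaction was 0.04 for calcitriol (-0.26 to 0.34) and 0.07 for calcidiol (-0.23 to 0.38), and the 18-array interaction was 0.22 (-0.47 to 0.92) and 0.31 (-0.38 to 1.00).

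Id3, an inhibitor of basic helix-loop-helix factors, had positive point estimates with either form on both sets of arrays. Its 12-array response was -0.85 with calcitriol, -0.58 with calcidiol and -1.21 without vitamin D. The calcidiol interaction was 0.63 on 12 arrays (0.14 to 1.13) and 0.59 on 18 (-0.08 to 1.27), neither of them called by limma (adjusted p = 1.00). Calcitriol gave 0.36 (-0.14 to 0.85) and 0.38 (-0.29 to 1.06). For Myc, Srf, Prmt6, Mtnr1a, Myl7 and Ifi47, the other 6 of the 8 largest fallers, every interval held 0 on both sets of arrays.

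**Figure D4:**
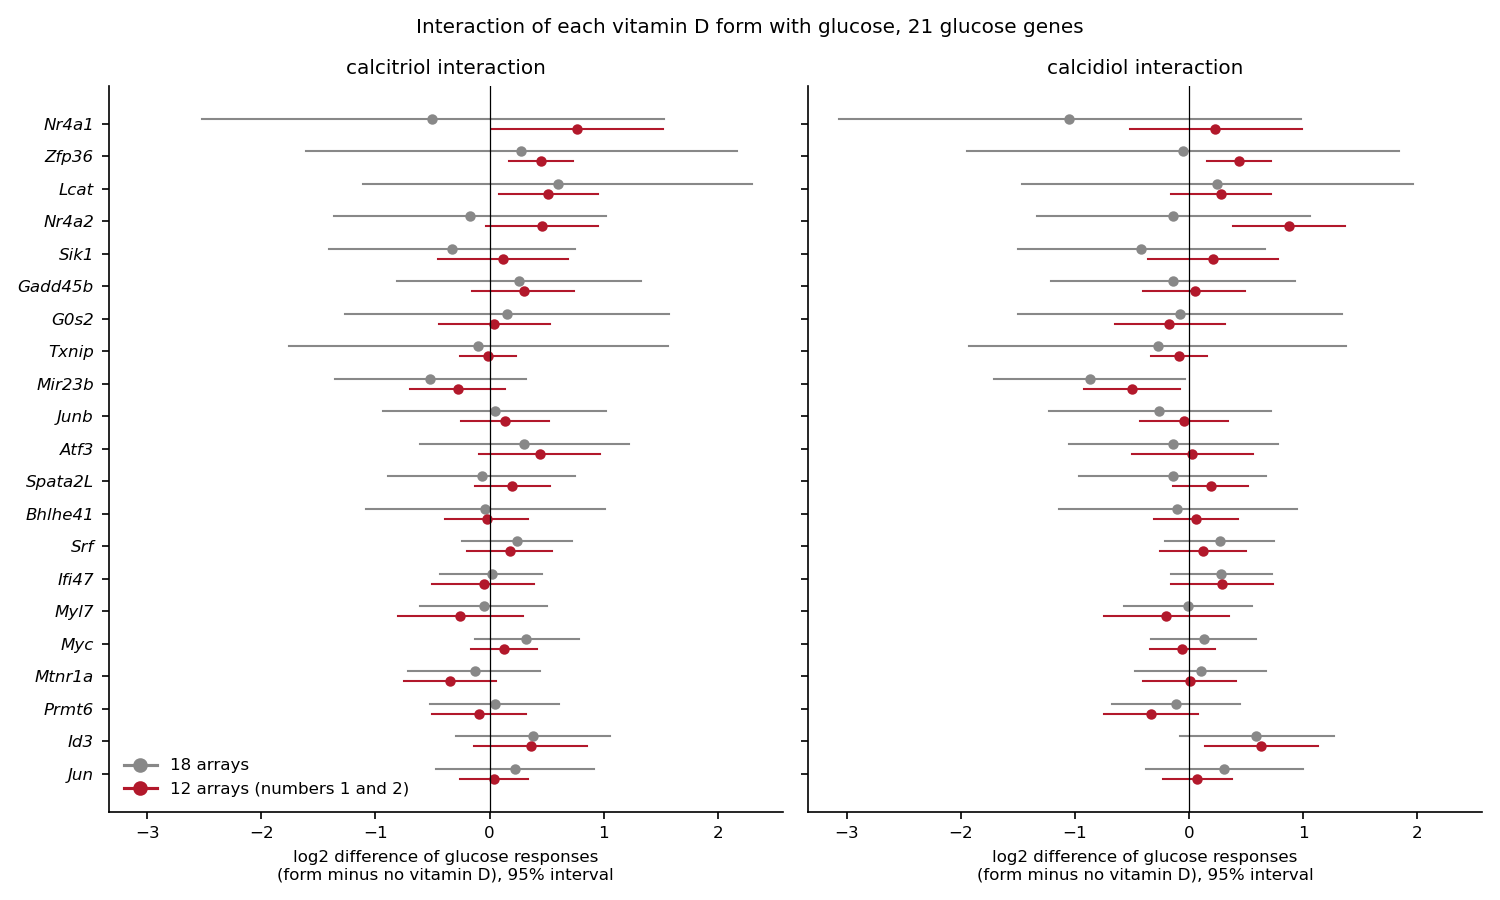
Interaction (x axis, log2 difference of glucose responses, form minus no vitamin D) with its 95% interval for Txnip and the 20 genes with the largest averaged rise (12) or fall (8) after glucose among those of the 100 with an established symbol, ordered from rise to fall, on 18 arrays (grey) and on 12 (red). The 18-array intervals of rising genes are wide, -2.52 to 1.53 for Nr4a1 with calcitriol, and the 12-array intervals are narrower, with those of Zfp36 on the right of 0 for both forms.

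Of the 3 microRNA genes among the 100, Mir23b and Mir7a-1 had lower glucose responses with either form than without vitamin D. This held by point estimate on both sets of arrays. Mir301a, named after its values were seen, had a calcidiol interaction of -0.31 on 18 arrays (-0.89 to 0.28) and 0.07 on 12. The array reads their precursor transcripts, so levels of the mature microRNAs are not measured. The mature products of Mir23b, and that of its relative Mir23a for the shared seed, are shown from RefSeq's assembly GRCr8 (chr17:1819405-1819425 and chr17:1819442-1819462, minus strand; chr19:40859778-40859798, minus strand), with the seed, bases 2 to 8, in capitals.
miR-23b-3p: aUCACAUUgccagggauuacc
miR-23b-5p: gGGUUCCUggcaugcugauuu
miR-23a-3p: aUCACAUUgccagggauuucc
The 3p products of both genes carry the same seed, UCACAUU.

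Mir23b had 7.01, 7.37 and 7.63 log2 signal with calcitriol + glucose, against 5.77, 5.98 and 7.09 with calcitriol. It had 6.89, 7.15 and 6.50 with calcidiol + glucose, against 5.95, 5.89 and 6.59 with calcidiol, and 7.27, 7.48 and 7.20 with glucose, against 5.74, 5.80 and 5.67 in control cells. Stimulated arrays were all above unstimulated ones without vitamin D, and overlapped them with either form, through the arrays numbered 3. The calcidiol interaction was -0.87 on 18 arrays (-1.71 to -0.03) and -0.50 on 12 (-0.92 to -0.08), and the calcitriol interaction was -0.52 (-1.35 to 0.32) and -0.28 (-0.70 to 0.14). Limma's adjusted p was 1.00 for each.

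Mir7a-1, a precursor of a microRNA abundant in endocrine pancreas, had 7.16, 7.48 and 7.36 with calcitriol + glucose, against 6.64, 6.73 and 7.05 with calcitriol. It had 7.01, 7.30 and 6.88 with calcidiol + glucose, against 6.74, 6.97 and 7.10 with calcidiol, and 7.23, 7.35 and 7.53 with glucose, against 6.56, 6.51 and 6.87 in control cells. Stimulated arrays were above unstimulated ones with calcitriol and without vitamin D, and overlapped them with calcidiol. The calcitriol interaction of Mir7a-1 was -0.19 on 18 arrays (-0.62 to 0.23) and -0.12 on 12 (-0.52 to 0.29). Its calcidiol interaction was -0.60 on 18 arrays (-1.02 to -0.18, unadjusted p = 0.00839, adjusted p = 1.00 by limma) and -0.46 on 12 (-0.86 to -0.06).

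The genes with the smallest unadjusted p on 18 arrays had small differences. For calcitriol, the genes described ran between -0.31 and 0.39 log2. Tbkbp1, a binding partner of the kinase TBK1, had 7.0, 6.96 and 6.98 with calcitriol + glucose, against 6.84, 6.79 and 6.68 with calcitriol, and 6.82, 6.80 and 6.83 with glucose, against 6.83, 6.89 and 7.05 in control cells. The stimulated calcitriol arrays were all above the unstimulated ones, and the glucose arrays all at or below the control arrays, for an interaction of 0.32 (0.12 to 0.52, unadjusted p = 0.00422). Hjurp, the chaperone of the centromeric histone, had 8.59, 8.42 and 8.61 with calcitriol + glucose, against 8.90, 8.81 and 8.92 with calcitriol, groups that do not overlap. With glucose it had 8.78, 8.79 and 8.71, against 8.82, 8.71 and 8.83 in control cells, which do overlap, and its interaction was -0.31 (-0.53 to -0.09). On 12 arrays these were 0.22 for Tbkbp1 and -0.37 for Hjurp. Drg1, a GTP-binding protein, had -0.31 on 18 arrays and -0.40 on 12.

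In Nelfb and Gspt2 the control arrays were the high ones. Nelfb, a subunit of the negative elongation factor, had between 9.11 and 9.22 on the 15 treated or stimulated arrays, against 9.43, 9.34 and 9.28 in control cells. Gspt2, a translation termination factor, had between 6.14 and 6.65 on those 15 arrays, against 6.92, 6.98 and 6.63 in control cells. The control arrays of Nelfb did not overlap the rest, and those of Gspt2 overlapped them through 1 array. Their calcitriol interactions were 0.21 (0.05 to 0.36) and 0.39 (0.10 to 0.69), and their calcidiol interactions 0.18 (0.03 to 0.34) and 0.28 (-0.01 to 0.58). On 12 arrays these were 0.24 and 0.52 for calcitriol, and 0.25 and 0.37 for calcidiol.

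For calcidiol, the genes described ran between -0.60 and 0.35. Tshz3, a zinc finger homeobox gene, had 7.0, 7.01 and 7.30 with calcidiol + glucose, against 6.98, 6.95 and 7.01 with calcidiol, and 6.82, 6.81 and 6.76 with glucose, against 6.99, 7.11 and 6.96 in control cells. Glucose arrays were all below control arrays, while stimulated and unstimulated calcidiol arrays overlapped, and the interaction was 0.35 (0.11 to 0.59, unadjusted p = 0.00676). The others were Kctd1 (0.32), Gpsm2 (0.28), Plgrkt (0.27), Timp1 (-0.31), Hook2 (-0.31) and Mir7a-1. These 7 had the same sign on the 12 arrays.

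**Figure D5:**
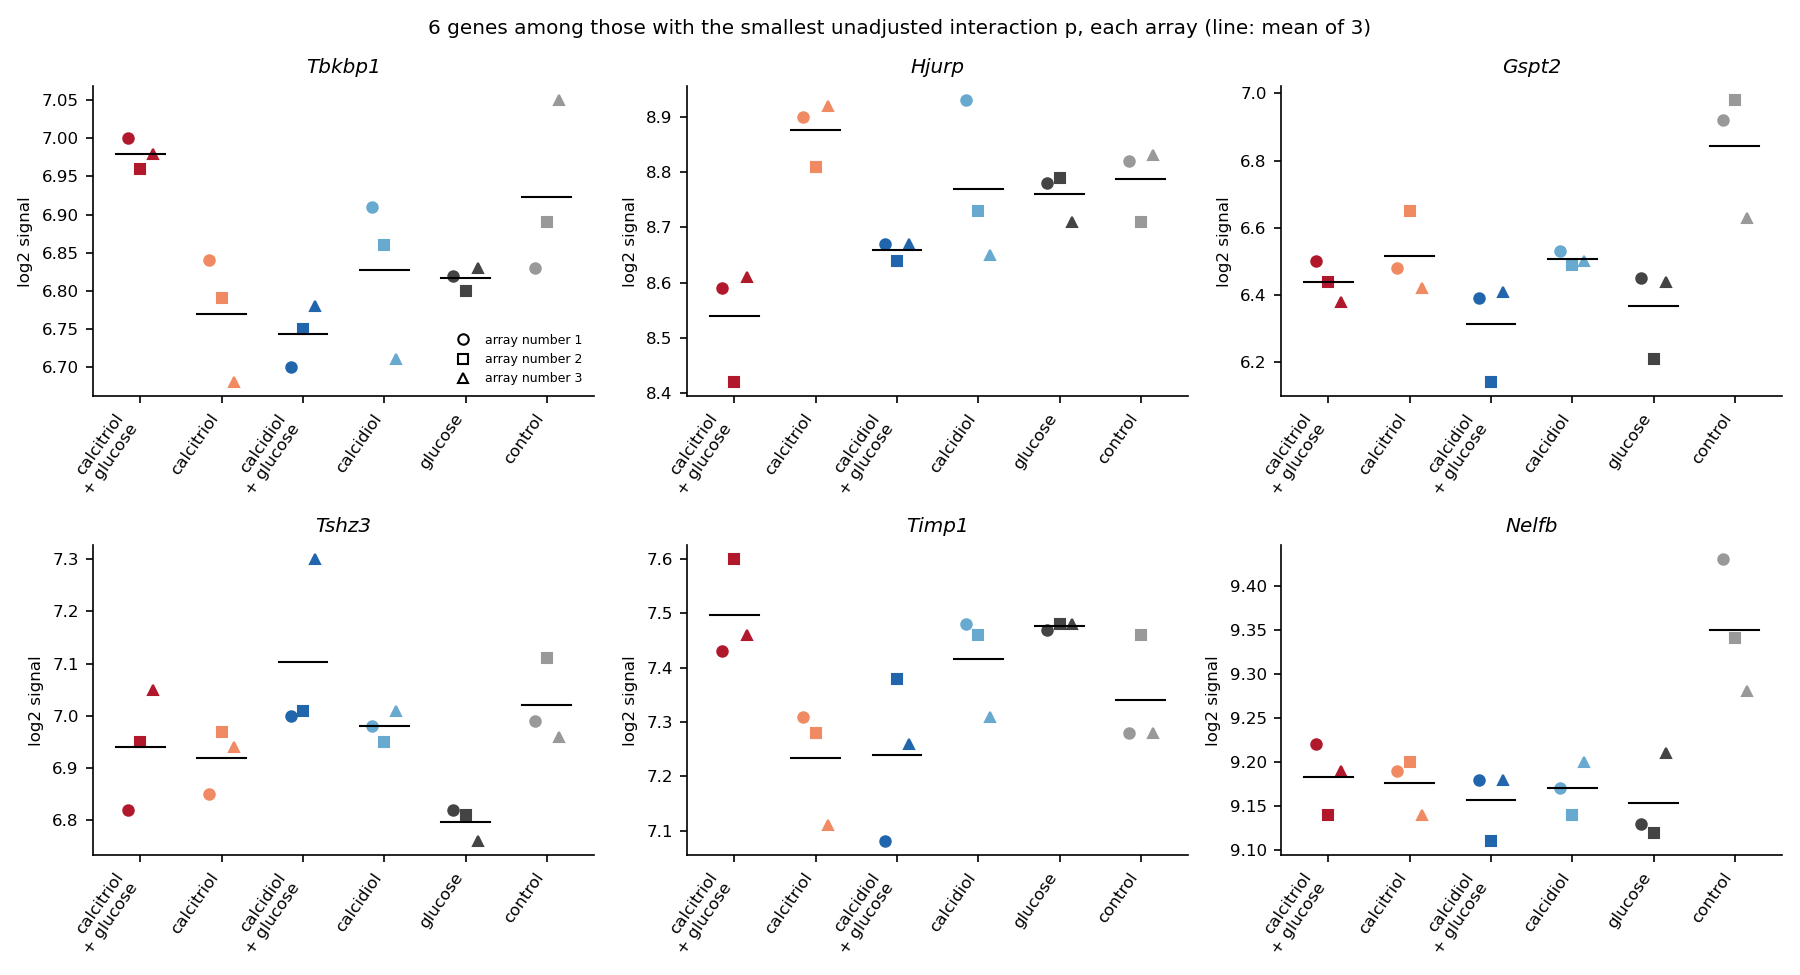
Log2 signal on each array (array numbers as symbols, line for the mean of 3) of 6 genes among those with the smallest unadjusted interaction p. Each gene spans less than 1 log2 unit; the control arrays of Nelfb, 9.28 to 9.43, lie above all others.

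The 2 vitamin D forms were also compared with each other at the same dose of 10 nM and the same 72 h. 3 pairs of glucose responses were compared (calcitriol and calcidiol each against none, and calcitriol against calcidiol). With p-values adjusted over all genes and the 3 pairs together, limma called 0 of 29556, on 18 arrays as on 12. Timp1, an inhibitor of matrix metalloproteinases, had the smallest p between the forms. It had 7.43, 7.60 and 7.46 with calcitriol + glucose, against 7.31, 7.28 and 7.11 with calcitriol, and 7.08, 7.38 and 7.26 with calcidiol + glucose, against 7.48, 7.46 and 7.31 with calcidiol. Stimulated arrays were above unstimulated ones with calcitriol, and mostly below them with calcidiol. The difference of the responses was 0.44 (0.19 to 0.69, unadjusted p = 0.00201, adjusted p = 1.00), and 0.46 on 12 arrays (0.12 to 0.79).

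Chkb, a choline kinase, differed by 0.32 between the forms (0.11 to 0.53), and Xpo4, a nuclear transport receptor, by -0.29 (-0.47 to -0.11). On 12 arrays these were 0.29 (0.03 to 0.54) and -0.35 (-0.63 to -0.08). Over the 100 glucose-responding genes the turned median of calcitriol minus calcidiol was 0.09 on 18 arrays and 0.08 on 12, with 80 and 70 genes above 0. These values do not show that the forms act alike: 18-array intervals for single responders reach 0.40 log2 to either side in the median.

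Genes named for the pathway were read by list. Of 18 tested genes of the vitamin D receptor, its partners, metabolism and responses, 0 were called, and 0 had an unadjusted p below 0.05 for either form on 18 or 12 arrays. Their median interaction was 0.01 for calcitriol and 0 for calcidiol on 18 arrays. Vdr, the receptor, had 7.47, 7.53 and 7.51 with calcitriol + glucose, against 7.48, 7.57 and 7.50 with calcitriol. It had 7.37, 7.73 and 8.49 with calcidiol + glucose, against 7.50, 8.05 and 8.41 with calcidiol, and 7.28, 7.49 and 7.40 with glucose, against 7.54, 7.56 and 7.53 in control cells. Stimulated and unstimulated arrays overlapped with both forms, and both calcidiol arrays numbered 3 were the highest. The interactions were 0.15 (-0.52 to 0.81) and 0.03 (-0.63 to 0.69), and on 12 arrays 0.14 (-0.38 to 0.67) and -0.06 (-0.58 to 0.46). Casr, the calcium-sensing receptor gene, had 9.55 and 9.52 on the arrays numbered 3 of calcidiol + glucose and calcidiol, against 6.20 to 6.48 on the other 4 arrays of these groups. With calcitriol + glucose it had 7.18, 7.36 and 6.45, against 7.36, 7.27 and 6.49 with calcitriol, so the arrays numbered 3 were the low ones. Glucose alone gave 6.31, 6.20 and 6.33, against 6.29, 6.19 and 6.43 in control cells. Its interactions on the 12 arrays were -0.06 (-0.34 to 0.23) for calcitriol and 0.14 (-0.15 to 0.42) for calcidiol, and on 18 arrays -0.02 (-2.40 to 2.37) and 0.14 (-2.25 to 2.52). Cyp24a1, the vitamin D-degrading hydroxylase gene, was not analysed here.

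Among 29 tested immediate early genes, the median interaction was 0.10 for calcitriol and -0.05 for calcidiol on 18 arrays, with 0 at an unadjusted p below 0.05. On 12 arrays the medians were 0.15 and 0.06, and 3 of the 29 had an unadjusted p below 0.05 for each form, against 1.46% and 1.40% of all tested genes, all with positive values (Nr4a1, Zfp36 and Plk3 for calcitriol; Nr4a2, Zfp36 and Id3 for calcidiol). Of these, Nr4a1 for calcitriol and Nr4a2 and Zfp36 for calcidiol had negative values on 18 arrays. Id3 fell after glucose, so its positive value is a smaller fall. The list medians were not turned by the direction of the glucose effect. Plk3, a stress-responsive kinase, had 0.46 with calcitriol on both sets (0.00 to 0.92 on 12 arrays, -0.68 to 1.59 on 18). Among 18 tested calcium- and cAMP-responsive genes the 18-array medians were -0.01 and -0.04, and Creb1, which encodes the cAMP-response element-binding protein, stood out at -0.37 with calcitriol on 18 arrays (-0.70 to -0.05) and -0.45 on 12. Its signal was 6.98, 6.88 and 7.23 with calcitriol + glucose, against 7.45, 7.48 and 7.37 with calcitriol, which do not overlap, and 7.17, 7.31 and 7.44 with glucose, against 7.33, 7.32 and 7.36 in control cells, which do. Arc, a synaptic plasticity gene, had 0.51 with calcitriol (0.11 to 0.91) and -0.21 with calcidiol (-0.61 to 0.19) on 12 arrays, and 0.53 (-0.02 to 1.08) and 0.00 (-0.55 to 0.55) on 18.

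Nfil3, a basic leucine zipper repressor of the clock, and Ppargc1a, a coactivator of mitochondrial genes, were named after their values were seen. On 12 arrays Nfil3 had 0.54 for calcitriol (0.19 to 0.88) and 0.42 for calcidiol (0.08 to 0.77). On 18 arrays it had 0.08 and -0.05. Ppargc1a had a calcidiol interaction of 0.58 on 12 arrays (0.06 to 1.10), and 0.22 on 18 (-0.80 to 1.24). Npas4, a neuronal activity factor also known in beta cells and likewise named after its values were seen, had 1.27 for calcitriol (-0.03 to 2.58) and 0.02 for calcidiol (-1.28 to 1.32) on 12 arrays. On 18 arrays it had 0.16 (-1.53 to 1.84) and -0.92 (-2.61 to 0.77), so that its calcidiol value turned.

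The other lists stayed close to the medians of all genes. For 17 carbohydrate response genes the 18-array median was 0 with either form. For 41 genes of insulin granules, channels and secretion it was 0.01 with calcitriol and -0.01 with calcidiol, and for 23 beta-cell hormone and transcription factor genes 0 and -0.01. Glycolysis (21 genes), the unfolded protein response (27), the amino acid response (25), sterol and fatty acid synthesis (25) and inflammatory genes (8) had medians between -0.02 and 0.04. In these 8 lists 0 genes had an unadjusted p below 0.05 for either form on 18 or 12 arrays. Circadian clock genes (16) had -0.01 and -0.08. Cell cycle genes (36) had -0.07 with calcitriol and 0.04 with calcidiol, -0.14 and 0.05 on 12 arrays, and Hjurp was their 1 member at an unadjusted p below 0.05.

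The insulin genes had narrow intervals that held 0. Ins1 had 12.85, 12.89 and 12.88 with calcitriol + glucose, against 12.80, 12.83 and 12.82 with calcitriol. It had 12.88, 12.91 and 12.85 with calcidiol + glucose, against 12.78, 12.98 and 12.90 with calcidiol, and 12.87, 12.85 and 12.85 with glucose, against 12.84, 12.85 and 12.86 in control cells. All values lay within 0.20 of each other, near the top of the signal range, where the array may compress differences; whether it did was not tested. The interactions were 0.05 (-0.11 to 0.20) and -0.02 (-0.17 to 0.14). Ins2 had 0.02 (-0.12 to 0.16) and -0.05 (-0.18 to 0.09). On 12 arrays the values were 0.04 and 0.00 for Ins1 and 0.07 and 0.01 for Ins2, and these intervals held 0 too.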

How the data were processed

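Arrays (Affymetrix rat gene arrays, 1 colour, 150 ng RNA) were read from the deposited tables. Per the file headers, the authors deposited normalised log2 signals; RMA and Partek appear in the submitters' processing notes, with neither version nor role. The deposited annotated table holds 17017 probe sets, of which 14698 carry a gene symbol. The symbol's probe set with the highest mean was kept (13136 genes), and genes in the lowest 25% by mean signal were left out (9852 tested). Array medians ran between 7.52 and 7.63. Limma (3.58.1 in R 4.3.3) was fitted to all 6 groups, without a replicate block, with 12 residual degrees of freedom on 18 arrays and 6 on 12, and p-values were adjusted over all genes (Benjamini-Hochberg). The procedure was also run on simulated data with independent noise on each array. Those data hold no spread shared by same-numbered arrays and no array that goes against its label. That run therefore says nothing about these features. Named genes were the 8 with the smallest p per comparison, the 12 largest rises and 8 largest falls among the 100 glucose genes, the 2 with the smallest p per list and form, and a fixed set, passing over symbols that start with LOC or RGD, date symbols and numbered predicted genes; others are said to be chosen after their values were seen, also Klf10, Nfil3, Ppargc1a, Plk3, Npas4 and Mir301a. Some genes named by this rule are not reported here. Members and lists were chosen with earlier results of these data known. Precision is limited by the number of arrays. Correlations of same-numbered arrays ran between 0.023 and 0.66 for calcitriol, -0.025 and 0.713 for calcidiol, and -0.114 and 0.713 for the forms. All 18 arrays correlated best with an array of their own number. The main fit did not treat numbers as pairs, so any spread shared by same-numbered arrays stays in its residual. Fits with a replicate block are given below as alternatives. Alternatives varied filter, normalisation, probe sets, moderation, weights and arrays left out.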

Additional observations from a re-analysis of the deposited data

How the results depend on the processing

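The counts of called genes were recomputed in 139 alternative analyses over the 4 comparisons (filters, normalisation, probe sets, moderation, array weights, compared groups only and arrays left out), and 0 genes were called in all 139. The share of genes at an unadjusted p below 0.05 ran between 0.193% and 4.74%, and the smallest adjusted p was 0.777, for calcidiol without the array labelled calcidiol + glucose number 3. With a replicate block on 18 arrays the counts were 0, with 208, 107, 329 and 157 genes at an unadjusted p below 0.05 for calcitriol, calcidiol, the forms and the F-test; 18 of 18 arrays correlated best with an array of their own number, a hint from the data, not the design. On 12 arrays with the block these were 291, 253, 467 and 309. The turned median of the 100 genes ran between -0.06 and 0.13 for calcitriol and between -0.14 and 0.03 for calcidiol. The spread of the score between arrays of a group was 0.17 (pooled SD), mostly from the arrays numbered 3, since arrays 1 and 2 of a group differed by at most 0.05. Of the 220 single-gene interactions computed for 110 genes, 102 changed sign under at least 1 alternative, but none had intervals excluding 0 on opposite sides. With every 1 of 29214 probe sets of the second deposited table, an alternative added after seeing the data, 0 were called. Comparing the groups alone gives no F-test.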
